A study of Oryza sativa with 40 samples.

Results

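The 150 probe sets described here had the strongest daily rhythms among rice transcripts that were highest at dawn in both flag leaves and seedling leaves. They were taken from the 57194 rice probe sets of the array by 3 steps. A probe set needed a mean signal of at least 100 in each tissue, which 21726 reached. Its signals, as log2(signal + 32), were averaged in each tissue over replicates and days to 6 clock hours, and it had to be highest at hour 8, the end of the night, in both tissues, which 1495 were, or 6.88% of the 21726. One of these belonged to the clock gene OsLHY and 8 to the study's list of starch and sucrose genes, and these 9 were left out. Of the remaining 1486, the 150 whose smaller daily range (highest minus lowest clock hour, of the tissue in which it was smaller) was largest were kept. The 3 probe sets just inside had a smaller range of 1.97, 1.96 and 1.95 on the log2 scale, and the 3 just outside had 1.94, 1.94 and 1.94. The peak at dawn, the range and the lowest hour are thus the values the members were chosen by, and are given as a description, with no test.

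The arrays were Affymetrix Rice Genome arrays of Nipponbare, a japonica cultivar of Oryza sativa. The 20 flag leaf arrays came from 3-month-old plants that grew in the field before they were entrained in a greenhouse at 32/30 °C, and the 20 seedling leaf arrays from 17-day-old plants in a greenhouse at 28/25 °C, both with 12 h of light and 12 h of dark. Light was on from 8 h to 20 h, and leaves were collected every 4 h from 8 h to 44 h with 2 biological replicates at each of the 10 time points. The hours are those the study gives by sample number, because the collection times written in the labels do not separate noon from midnight in every case. Tissue, plant age, temperature and growth history differ together, so that their parts in a difference between flag and seedling leaves cannot be told apart. The last seedling time point, 44 h, was not used in choosing the members.

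Plants in a day and night cycle use an internal clock to raise many transcripts before the sun rises, so that the proteins for light capture and carbon fixation are in place when light comes. In the clock of rice and of Arabidopsis thaliana, the MYB protein LHY is made around dawn and holds down genes that are made in the evening. Transcripts that peak at dawn in leaves are known to include genes for building chloroplasts and their pigments, for sugar transport and for tolerance of heat, cold and drought.

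The annotation gave 1 gene for 105 of the 150 members, several for 1 and none for 44. The 105 stood for 99 genes, and 28 members had a gene name or a description in the annotation or in the study's own gene table. Of these, 26 are called named members here. The other two are a probe set of several genes, described as a mitochondrial protein kinase, with ranges of 6.20 in flag leaves and 2.82 in seedling leaves, and one described as an unclassified transposon protein (LOC4330432), with 3.28 and 3.04. Members sharing a gene were the 2 probe sets of OsSWEET2b, the 2 of a plastid RNA polymerase sigma factor gene (LOC4339759), 2 each of LOC4333528 and LOC9272389, and 3 of LOC4344160, and they are not independent of each other. HEMB and the unnamed LOC4341998 were the only pair of member genes that neighbour each other in the RefSeq gene order. The 11 genes with other measurable probe sets had 12 of them, of which 6 were also highest at dawn in both tissues and 6 in 1 tissue alone.

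In the median member, replicates lay close together beside these rhythms. At dawn the median difference between replicates was 0.33 at 8 h and 0.18 at 32 h in flag leaves, and 0.14 and 0.19 in seedling leaves, all on the log2 scale. The largest difference of a single member was 1.54 at 8 h and 2.27 at 32 h in flag leaves. In seedling leaves it was 0.88 and 0.90. In each tissue, the 4 dawn arrays lay above all arrays of the lowest clock hour in 150 of 150 members. The same arrays gave the peak and range by which the members were chosen, so that this count is a description. It was not made for other probe sets. The mean signal of an array was 753 to 877 in flag leaves and 696 to 733 in seedling leaves. The array's 3′ to 5′ signal ratio for GAPDH, a measure of RNA integrity, was 4.43 to 7.57 at dawn and 2.72 to 8.72 at other hours in flag leaves, and 2.61 to 4.87 at dawn and 2.35 to 3.96 at other hours in seedling leaves. Its median in flag leaves was 5.68 at dawn and 3.34 at other hours, and in seedling leaves 3.42 and 3.18. For actin it was 3.21 to 4.76 at dawn and 2.47 to 5.71 at other hours in flag leaves, and 2.75 to 3.41 at dawn and 2.15 to 4.37 at other hours in seedling leaves, with medians of 3.88 and 3.09 in flag leaves and 3.09 and 3.23 in seedling leaves. In flag leaves both ratios thus had a higher median at the hour at which the members peak. The part of RNA integrity in the daily course was not tested. All 12 probe sets of green leaf markers (Rubisco activase and chlorophyll a-b binding proteins) had a mean signal of at least 100 in each tissue. Their summed signal was 122316 to 512407 in flag leaves and 33559.8 to 285758 in seedling leaves. Of 7 probe sets of seed endosperm proteins, 1 reached 100 in flag leaves and 0 in seedling leaves, with a summed signal of 98.9 to 1185 and 78.7 to 166. The single probe set of the anther list, named OsRPA14, was matched only through its description as pollen-specific protein-like. It was measured in both, at 1875 to 2997 in flag leaves and 1616 to 3387 in seedling leaves.

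The members fell through the light period and were higher again before dawn. Relative to dawn, the median member in flag leaves stood at -0.88 at hour 12, -2.72 at hour 16, -3.64 at hour 20, -2.45 at hour 0 and -1.71 at hour 4 on the log2 scale. In seedling leaves the same medians were -0.70, -1.40, -2.38, -2.21 and -0.99, a shallower fall. From hour 20 to hour 0 the median had already moved up in flag leaves and little in seedling leaves. Over all 21726 measurable probe sets these medians lay between 0.01 and 0.13 in flag leaves and between -0.02 and 0.05 in seedling leaves. The lowest hour was 20, the end of the light period, in 111 members in flag leaves and 83 in seedling leaves. Hour 16 was lowest in 26 members in flag leaves and 14 in seedling leaves, and hour 0 in 7 and 53. The remaining 6 members in flag leaves were lowest at hour 4 (5 members) or hour 12 (1 member).

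**Figure D1:**
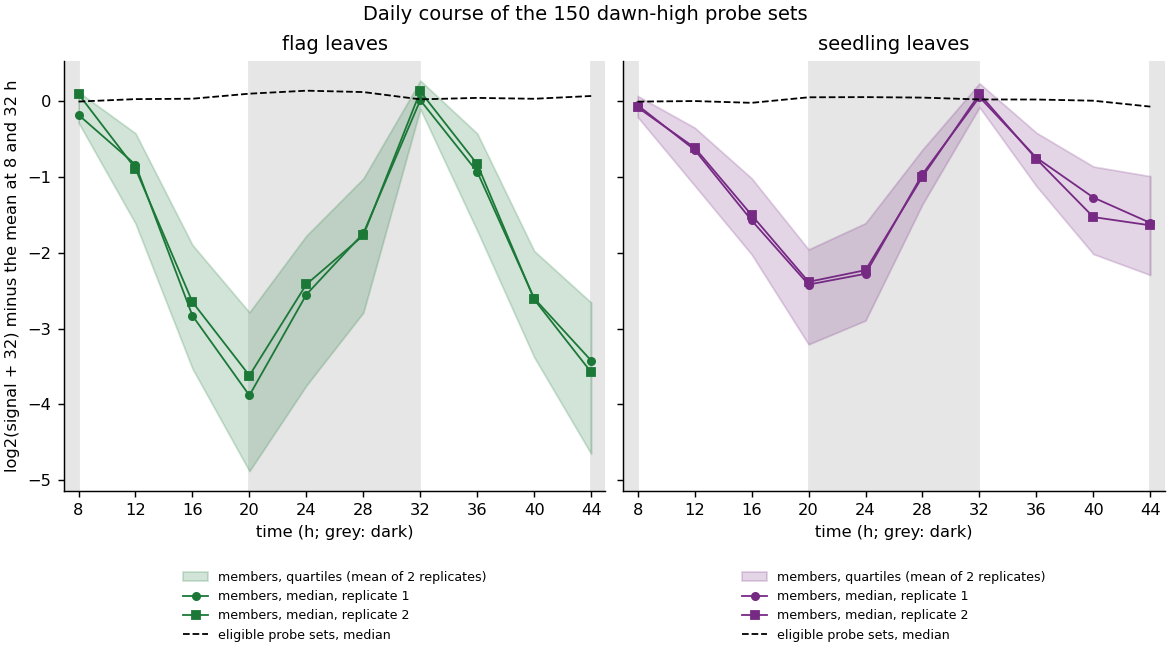
Signal of the 150 members over the 36 h of sampling in flag leaves (left) and seedling leaves (right), as log2(signal + 32) minus each member's own mean at 8 and 32 h. Lines are the median of the members in each replicate, bands the quartiles, the dashed line the median of all 21726 measurable probe sets, and grey marks darkness. The 2 replicates run close together, the flag leaf curve falls deeper, and seedling leaves at 44 h stay above their 20 h level.

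Both dawns carried the peak in most members. In flag leaves 8 h was the highest of the time points from 8 to 28 h in 139 of 150, and 32 h the highest from 24 to 44 h in 138. In seedling leaves the numbers were 130 from 8 to 28 h and 147 from 24 to 40 h. Since the mean over both days was used in choosing the members, these counts describe how evenly the days shared the peak. The seedling arrays at 44 h were not used in that choice, but the 32 h and 20 h arrays they are set beside were, so that these values are a description as well. Both lay below both 32 h arrays in 143 members (95.3%), against 40.1% of all measurable probe sets, with a median 44 h minus 32 h difference of -1.68 for the members and -0.10 for all. Both lay above both 20 h arrays in 112 members (74.7%, against 27.6% of all) and below them in 17. The median 44 h minus 20 h difference was 0.92 for the members and -0.13 for all.

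The range was larger in flag leaves than in seedling leaves for 135 of the 150 members. It ran from 1.99 to 8.20 in flag leaves, with a median of 3.71 (13.1-fold), and from 1.95 to 5.97 in seedling leaves, with a median of 2.60 (6.06-fold). The median difference, flag minus seedling, was 1.03, and single members lay between -1.45 and 5.64. This tilt was not particular to them, since the range was larger in flag leaves in 80.8% of all measurable probe sets and in 85.6% of the dawn-high ones. The median range over all measurable probe sets was 1.00 in flag leaves and 0.62 in seedling leaves. With 32 added before the logarithm, the largest flag leaf range, 8.20, belonged to an unnamed gene (LOC4351693) whose signals were 39953 and 47857 at 8 h, 80.6 and 71.8 at 20 h and 35739.7 and 38377 at 32 h. In seedling leaves its signals were 17051 and 16027 at 8 h, 2950.4 and 2633 at 20 h and 16334 and 16861 at 32 h, and its range was 2.56. With 16 added, OsSWEET2b had a larger flag leaf range, 8.75 against 8.44 for LOC4351693.

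**Figure D2:**
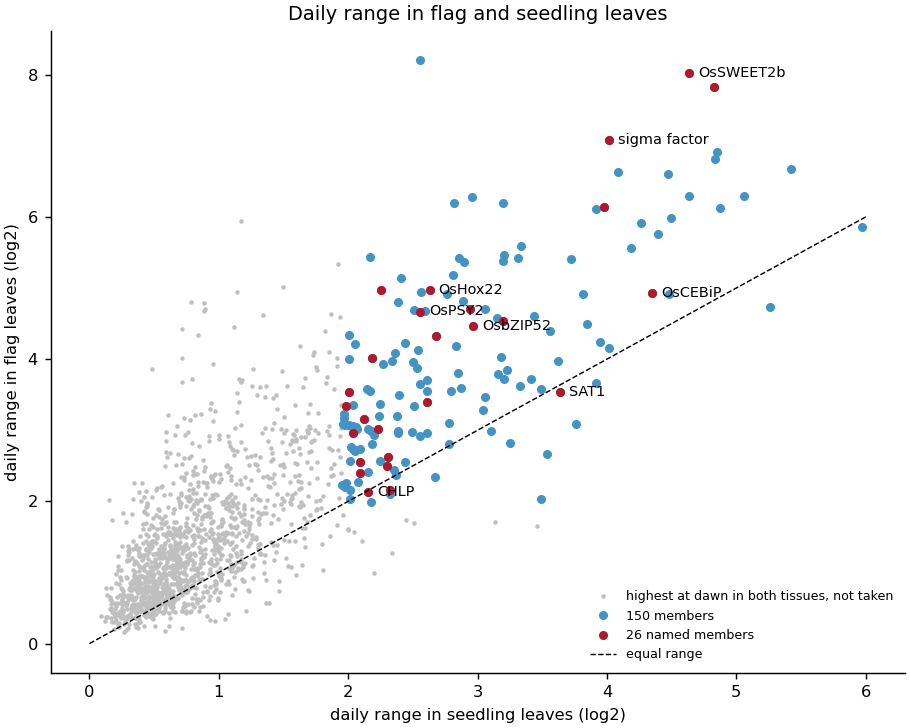
Daily range in flag leaves (vertical axis) against the range in seedling leaves (horizontal axis), both on the log2 scale, for the 1486 dawn-high probe sets. Red points are the 26 named members, blue points the other members and grey points the probe sets not taken. Most members, 135 of 150, lie above the dashed line of equal range, while SAT1 and CHLP lie close to it.

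The members differed in which hour came second to dawn. Hour 12 was the second highest in 105 members in each tissue, and hour 4 in 40 in flag leaves and 42 in seedling leaves. In 80 members it was hour 12 in both tissues, which says only that hour 12 was above every hour but dawn. Their median at hour 12 was -0.64 in flag leaves and -0.56 in seedling leaves, against -2.57 and -1.14 at hour 4, and single members could lie far below dawn at hour 12, as OsbZIP52 did by 1.96 in flag leaves. In 15 members it was hour 4 in both tissues. Their medians were -0.79 in flag leaves and -0.39 in seedling leaves at hour 4, against -2.06 and -1.32 at hour 12. In every member hour 4 lay below dawn in both tissues, with a highest difference of -0.03 in flag leaves and -0.02 in seedling leaves. Dawn had to be the highest hour, so that this was fixed by how the members were chosen. The smallest of these differences lay below the median difference between replicates at dawn, and show no rise before light. The first set holds 16 of the named members, among them OsSWEET2b, the sigma factor, OsPSY2, HEMB, CHLP, OsbZIP52 and OsHox22. The second holds only 1 named member, MODD, which in rice promotes the breakdown of the drought regulator OsbZIP46. The remaining 55 members differed between the tissues or had another second hour.

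The member with the largest smaller range has no name (LOC4344635). In flag leaves it gave 27509 and 33672 at 8 h, 206 and 1044 at 20 h, 32538 and 30105 at 32 h and 1046 and 259.7 at 44 h. In seedling leaves it gave 2022 and 2018.9 at 8 h, 15.9 and 17.7 at 24 h, 4694 and 4384 at 32 h and 204 and 236 at 44 h. Signals at dawn and at dusk or midnight did not overlap in either tissue, which follows from its being ranked first by range. The ranges were 5.86 in flag leaves and 5.97 in seedling leaves.

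The named member with the largest smaller range was a sugar transporter. OsSWEET2b, of the SWEET family of sugar transporters, was measured by 2 probe sets that ran together. On the one with the larger flag leaf range, flag leaves gave 8738 and 12474 at 8 h, 3.9 and 2.2 at 20 h, 12218.5 and 11664.5 at 32 h and 41.9 and 5.7 at 44 h, so that dusk signals lay near or below the constant of 32 added before the logarithm. Seedling leaves gave 3571 and 3034 at 8 h, 181 and 124 at 20 h, 6657 and 5585 at 32 h and 520.3 and 614 at 44 h. Its range was 8.02 in flag leaves and 4.63 in seedling leaves, and the other probe set had 7.82 and 4.83. Dusk was the lowest hour in both tissues. Of 9 measurable SWEET probe sets, 2 were highest at dawn in both tissues, both of OsSWEET2b. The magnesium transporter MRS2-A had a range of 4.70 in flag leaves and 2.94 in seedling leaves. Its signals were 16587 and 20471 at 8 h and 498 and 480.3 at 20 h in flag leaves, and 6512 and 4769 at 8 h and 806 and 686 at 20 h in seedling leaves. A major facilitator superfamily antiporter gene (LOC4351424) had ranges of 4.97 and 2.25. Lsi6, which in rice unloads silicon from the xylem of leaves and nodes, was the transporter with the smallest range, 2.40 in flag leaves and 2.09 in seedling leaves, and with a lowest hour of 4 and 16. In flag leaves its hour 8 mean lay only 0.02 above hour 12, close to a tie.

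A sigma factor, the subunit with which the bacterial-type RNA polymerase of plastids finds its promoters, had 2 probe sets among the members. On the one with the larger ranges, flag leaves gave 18476 and 21977 at 8 h, 13603 and 17374.5 at 12 h, 66.9 and 89.0 at 20 h, 218 and 269 at 24 h and 20473 and 20984 at 32 h. Seedling leaves gave 3353 and 3096 at 8 h, 2907 and 2456 at 12 h, 229 and 200.5 at 20 h, 162 and 183 at 24 h and 3609 and 3019 at 32 h. Hour 12 lay only 0.19 below dawn in flag leaves and 0.37 in seedling leaves on the log2 scale, and the signal was lowest at dusk in flag leaves and at midnight in seedling leaves. Ranges were 7.08 in flag leaves and 4.01 in seedling leaves, and 6.14 and 3.98 on the other probe set. OsCRSH1, a calcium-activated synthase of the plastid alarmone ppGpp, had ranges of 3.34 in flag leaves and 1.98 in seedling leaves. It was the only dawn-high gene in both tissues among the 5 measurable probe sets of its family in rice. OsCRSH2, in contrast, was highest at hour 12 in flag leaves with a range of 7.05 and at hour 16 in seedling leaves with 1.97.

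Pigment synthesis was represented by 4 members. HEMB encodes the dehydratase that joins aminolevulinate into porphobilinogen, an early step of chlorophyll synthesis. It gave 6266 and 6517 at 8 h, 485 and 881 at 20 h, 7445 and 8565.5 at 32 h and 843 and 965 at 44 h in flag leaves. In seedling leaves it gave 7375 and 8220.0 at 8 h, 1671.5 and 1944 at 20 h, 7485.5 and 8801 at 32 h and 3956 and 4143 at 44 h. Flag leaf signals lay below those of seedling leaves at 8, 20 and 44 h and beside them at 32 h, and the ranges were 3.16 in flag leaves and 2.12 in seedling leaves. CHLP, the geranylgeranyl reductase that makes the phytyl tail of chlorophyll and tocopherol, had nearly equal ranges of 2.13 in flag leaves and 2.15 in seedling leaves. Averaged over both days, its hour 8 mean lay only 0.01 above hour 12 in flag leaves and 0.03 in seedling leaves. CHLP was thus close to a tie between these hours. In flag leaves it stayed near its dawn level as late as 16 h, with 27005 and 27438.5 at 8 h, 27618 and 22674 at 12 h, 24270.1 and 21272 at 16 h and 4786 and 5013 at 24 h. Seedling leaves gave 11309.6 and 12219 at 8 h, 10648 and 12359 at 12 h, 7892 and 8904 at 16 h and 2342 and 2839 at 24 h and were already lower at 16 h. OsPSY2 encodes phytoene synthase, the entry to carotenoids. Its signals were 18064 and 21750.1 at 8 h, 402 and 712 at 20 h and 20356 and 21179 at 32 h in flag leaves, and 4090.5 and 3687 at 8 h, 1185 and 1249.9 at 20 h and 5179 and 5029 at 32 h in seedling leaves. Dawn signals in flag leaves were several times those of seedling leaves, the 20 h signals were lower than those of seedling leaves, and the ranges were 4.67 and 2.55. CLA1 (also DXPS) encodes the synthase that opens the plastid pathway to isoprenoids, and had ranges of 2.62 and 2.31.

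These 4 members were set beside the other measured genes of their pathways, taken by gene name after the members were known. Of 12 measurable probe sets for chlorophyll synthesis, 2 (HEMB and CHLP) were highest at dawn in both tissues, 2 in flag leaves alone (CHLH and CAO), 1 in seedling leaves alone (GluTR) and 7 in neither. CHLH, a subunit of magnesium chelatase, and CAO, which makes chlorophyll b, were highest at hour 12 in seedling leaves with ranges of 4.29 and 3.56. PORA and PORB, the light-dependent protochlorophyllide reductases, were highest at hour 16 in flag leaves and, PORA at hour 12 and PORB at hour 16, in seedling leaves. Of 8 probe sets for plastid isoprenoid precursors, 1 was dawn-high in both tissues, the member of CLA1. The other probe set of CLA1 was highest at hour 8 in seedling leaves but at hour 16 in flag leaves, so that the flag leaf peak of this gene depends on the probe set. Of 7 probe sets for carotenoid synthesis, 1 was dawn-high in both tissues, OsPSY2. OsABA1, the zeaxanthin epoxidase, had a larger range than OsPSY2, 7.15 in flag leaves and 4.30 in seedling leaves, with its peak at hour 12 and hour 16.

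**Figure D3:**
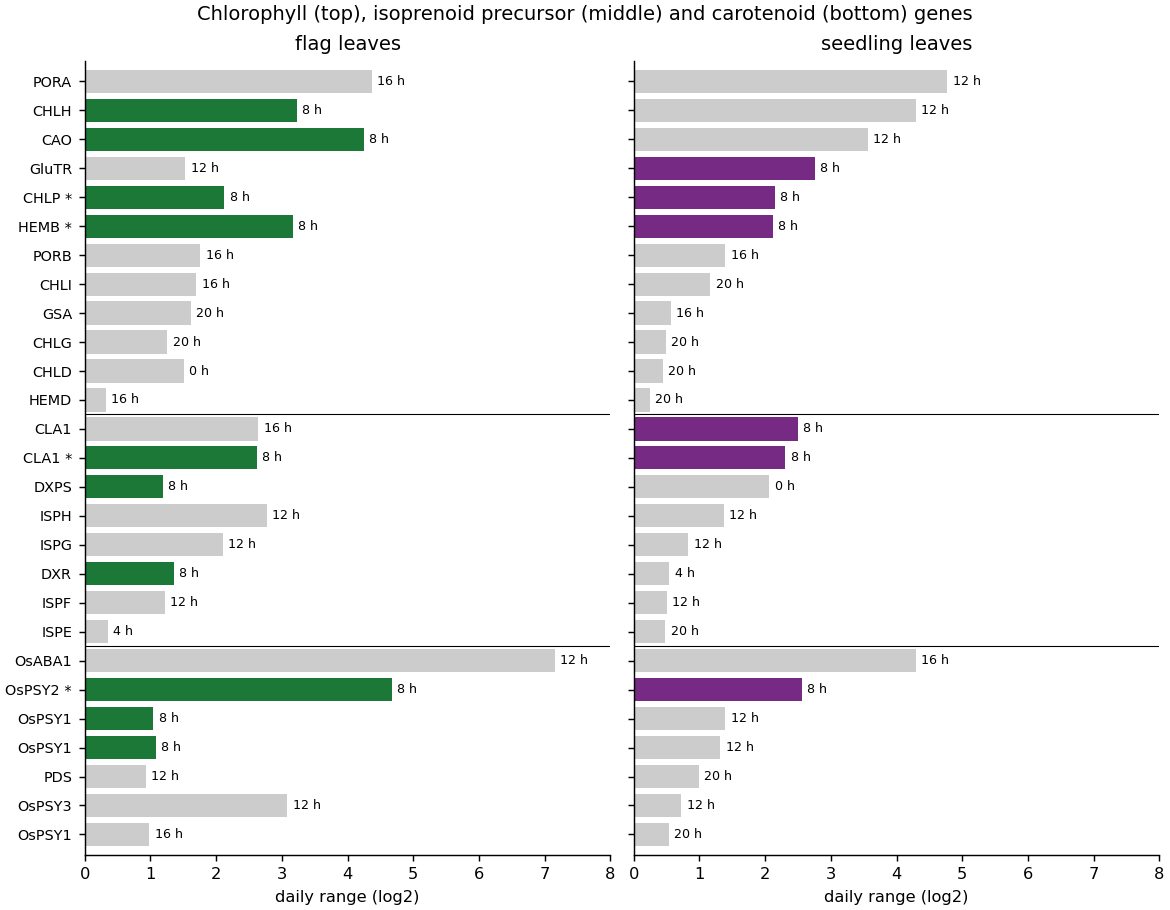
Daily range (bars, log2 scale) of measured probe sets for chlorophyll, isoprenoid precursor and carotenoid synthesis in flag leaves (left) and seedling leaves (right). The clock hour of the highest mean stands beside each bar, coloured bars are highest at hour 8, and a star marks the 4 members. Dawn peaks in both tissues are held by HEMB, CHLP, 1 of the 2 probe sets of CLA1 and OsPSY2 alone, that of CHLP by a narrow margin over hour 12.

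Transcription factors among the members came from several families. OsbZIP52, a bZIP factor that in rice lowers tolerance of cold and drought, gave 2421 and 2150.5 at 8 h, 52.4 and 18.6 at 24 h and 916 and 824 at 32 h in flag leaves, and 5711.5 and 5696 at 8 h, 601 and 591 at 24 h and 4205 and 4086 at 32 h in seedling leaves. Its lowest hour was midnight in both tissues, and its ranges were 4.47 and 2.96. OsHox22, a homeodomain-leucine zipper factor, had ranges of 4.97 and 2.63. OsHsf-05, a heat stress factor of class C, had ranges of 4.32 and 2.68, and a zinc finger factor of the CONSTANS-like kind (LOC4346474) had 4.53 and 3.20. A salt tolerance-like protein (LOC4329923) had 2.49 and 2.30. TINY, named after a factor of the AP2 family in Arabidopsis, had 2.16 and 2.32 at low signals, 205 and 228 at 8 h and 524 and 338 at 32 h in flag leaves and 259.6 and 229.7 at 8 h and 253 and 396 at 32 h in seedling leaves. Of the families these belong to, 1 of 12 measurable OsbZIP probe sets, 1 of 20 OsHsf probe sets and 5 of 22 OsHox probe sets were highest at dawn in both tissues.

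The other named members act in signalling and metabolism. OsCEBiP, the receptor with which rice senses chitin of fungi, had ranges of 4.93 in flag leaves and 4.35 in seedling leaves, and its 2 dawns differed in flag leaves, as the comparison of dawns shows. OsCIPK17, a kinase that calcium sensors of the CBL family activate, was lowest at hour 16 in both tissues with ranges of 2.97 and 2.04, and 4 of 29 measurable OsCIPK probe sets were highest at dawn in both. SAT1 had ranges of 3.53 and 3.64, and MODD 2.55 and 2.09. The UDP-glucose epimerase OsUGE-2, which interconverts sugar nucleotides for cell walls, had 3.02 and 2.23. The beta-glucosidases BGLU19 and BGLU31 had 3.40 and 2.61, and 4.01 and 2.18, while 2 of 24 measurable BGLU probe sets were dawn-high in both tissues. An NADP-dependent glyceraldehyde-3-phosphate dehydrogenase (LOC4345685) gave 26768.5 and 33529 at 8 h and 1656 and 2579.9 at 20 h in flag leaves, and 15914 and 14929 at 8 h and 3566 and 3659 at 20 h in seedling leaves, with ranges of 3.54 and 2.00.

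Gene lists matched on words in names or descriptions held few members and missed many that belong to them by function. Of the 2591 measurable probe sets with a name or description, 203 (7.83%) were highest at dawn in both tissues and 26 were members. The words for transcription factors matched 2 members among 102 measurable probe sets (OsbZIP52 and the CONSTANS-like gene), of which 11 were dawn-high in both tissues. Those for transporters matched 1 among 27 (the antiporter), with 4 dawn-high, and cold and drought genes 1 among 6 (the salt tolerance-like gene), with 1 dawn-high. The lists for light harvesting and photosystems, chlorophyll and carotenoid synthesis, chloroplast proteins, kinases and phosphatases, ubiquitin ligases, heat shock and chaperones, hormones, redox, lipids, secondary metabolism, light receptors and signalling, and carbohydrates matched 0 members among 5 to 80 measurable probe sets each. Not matched were the transcription factors OsHox22, OsHsf-05 and TINY, the transporters OsSWEET2b, MRS2-A and Lsi6, the kinase OsCIPK17 and the pigment genes HEMB, CHLP and OsPSY2. The member described as a protein kinase was outside the lists because its probe set has several genes. These counts are therefore no measure of how many members act in each role.

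**Figure D4:**
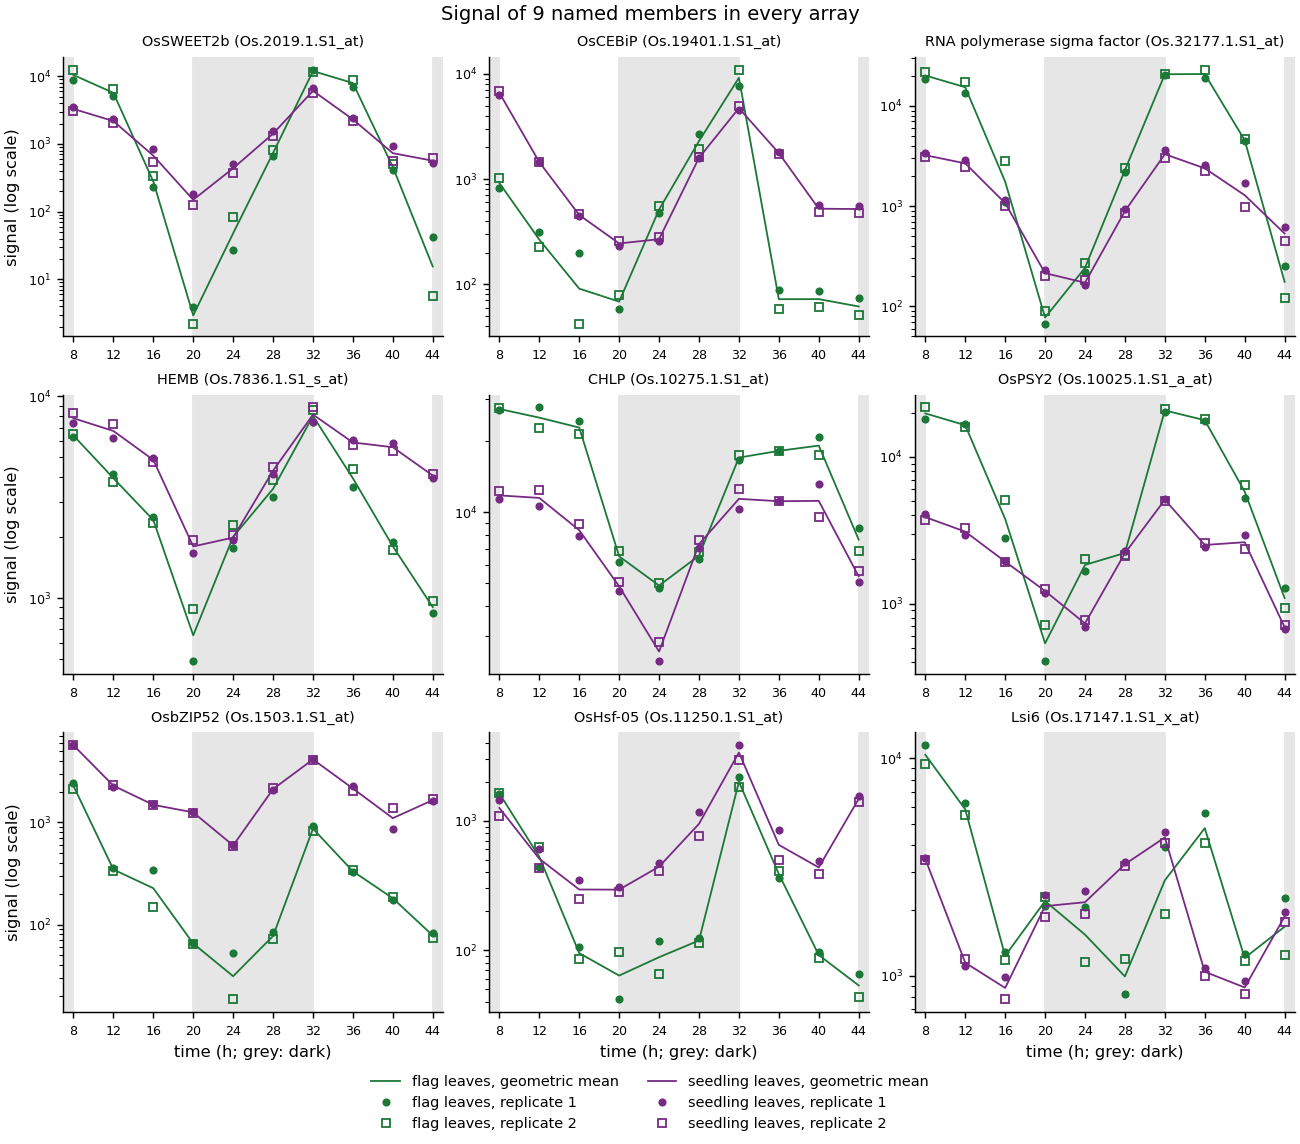
Signal on a log axis against time of collection for 9 named members in flag leaves (green) and seedling leaves (purple). Filled circles are replicate 1, open squares replicate 2, lines their geometric means, and grey marks darkness. OsCEBiP in flag leaves peaks far higher at 32 h than at 8 h, and OsbZIP52 is lower in flag leaves than in seedling leaves at every time point.

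The mean of each probe set's log2 values over the 10 time points is called its level here. It was tested with limma over the 25948 probe sets that reached the minimum mean signal of 100 in either tissue. A deeper daily low gives a lower level, so the level is not free of the range by which the members were chosen. The level can also differ in direction from the mean signal. The 2 probe sets of OsSWEET2b had mean signals of 3784 and 5011 in flag leaves and 1794 and 2103 in seedling leaves. Their levels were lower in flag leaves, at -0.54 ± 0.10 (SE) (adjusted p = 3.7e-05) and -0.25 ± 0.09 (SE) (adjusted p = 0.016). Flag minus seedling passed a Benjamini-Hochberg adjusted p of 0.05 for 136 of 150 members, or 90.7%, and for 77.6% of all probe sets tested. The level was higher in flag leaves for 82 members (54.7%, against 39.3% of all) and lower for 54 (36%, against 38.3%). The median difference of the members was 0.35, within -3.84 to 3.64, and that of all probe sets 0.02, on the log2 scale. The p-values here and in what follows measure the spread between the 2 biological replicates of each time point. Arrays with the same replicate number deviated together within each tissue. The level test treats the 10 time points as independent, so that its SEs and p-values overstate the evidence from 2 replicate series per tissue. The replicate block used as an alternative takes this shared deviation out of the spread, and so does not correct for it here. Members were brighter than other probe sets, with a median mean signal of 2764 in flag leaves and 1528 in seedling leaves against 827 and 801 for all measurable ones, and the part of brightness in the share called was not tested. In such bulk samples fewer cells of a type and less RNA per cell cannot be told apart.

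By this level, BGLU19 was higher in flag leaves, by 1.85 ± 0.10 (SE) (adjusted p = 1.8e-14). So were OsPSY2, by 1.25 ± 0.07 (SE) (adjusted p = 4.9e-14), and CHLP, by 0.75 ± 0.05 (SE) (adjusted p = 1.1e-12). The sigma factor was also higher, by 1.25 ± 0.10 (SE) on one probe set (adjusted p = 2e-11) and 1.02 ± 0.10 (SE) on the other (adjusted p = 2.3e-09), and SAT1, by 0.55 ± 0.05 (SE) (adjusted p = 1e-09). Lower in flag leaves was OsbZIP52, by far the largest difference among named members at -2.89 ± 0.07 (SE) (adjusted p = 6.7e-21). Its flag leaf signal was below the seedling signal at each of the 10 time points. OsCEBiP was lower as well, at -1.52 ± 0.10 (SE) (adjusted p = 4.4e-13), and so were OsHsf-05, at -1.48 ± 0.09 (SE) (adjusted p = 1.2e-13), OsCIPK17, at -1.25 ± 0.07 (SE) (adjusted p = 1e-14), and HEMB, at -0.81 ± 0.06 (SE) (adjusted p = 8.2e-12). The pigment genes thus differed in direction, OsPSY2 and CHLP being higher in flag leaves and HEMB and CLA1 (-0.56 ± 0.11 (SE), adjusted p = 4.9e-05) lower. Of the 26 named members 24 passed the test, and TINY (-0.03 ± 0.15 (SE), adjusted p = 0.87) and OsCRSH1 (0.10 ± 0.08 (SE), adjusted p = 0.25) did not.

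The 2 dawns were compared next, which the mean over days does not separate. The GAPDH ratio differed between them. In flag leaves it was 6.37 and 7.57 at 8 h and 4.98 and 4.43 at 32 h. In seedling leaves it was 4.87 and 3.89 at 8 h and 2.61 and 2.96 at 32 h. Flag leaf ratios at 36 and 40 h were also below those of the same replicate at 12 and 16 h. The actin ratios of the 2 dawns overlapped in each tissue. The part of RNA integrity in the dawn and day comparisons was not tested. In flag leaves 26 members (17.3%) passed the limma test for 32 h minus 8 h, against 12.3% of all probe sets. They were higher at the second dawn in 17 cases (11.3%, against 6.96%) and lower in 9 (6%, against 5.36%), with a member median of 0.18 against 0.02. The share of all probe sets was counted in the main setting alone, so that counts under other settings, here and below, stand without it. Without either seedling replicate, which enters only through the shared spread, 16 passed. OsCEBiP changed most. It gave 7724 and 10964.5 at 32 h in flag leaves and 829 and 1013.5 at 8 h, a difference of 3.28 ± 0.31 (SE) on the log2 scale (adjusted p = 9.6e-08). It had already reached 2712 and 1948 at 28 h, and at 36 h it was back at 88.3 and 58.7. In seedling leaves it gave 4561 and 4923 at 32 h and 6341 and 6890.4 at 8 h, a difference of -0.48 ± 0.31 (SE) that did not pass (adjusted p = 0.59). An unnamed gene (LOC4326767) was higher by 1.71 ± 0.17 (SE) (adjusted p = 1.7e-07).

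Lower at the second dawn in flag leaves were Lsi6, OsbZIP52 and CHLP. Lsi6 gave 3909 and 1932 at 32 h and 11515 and 9401 at 8 h, a difference of -1.91 ± 0.29 (SE) (adjusted p = 7.3e-05). At 36 h it gave 5596 and 4077, above its 32 h signals, so that its second peak in flag leaves came after dawn. OsbZIP52 gave 916 and 824 at 32 h and 2421 and 2150.5 at 8 h (-1.36 ± 0.23 (SE), adjusted p = 0.00034), and CHLP 16613 and 17338 at 32 h and 27005 and 27438.5 at 8 h (-0.68 ± 0.16 (SE), adjusted p = 0.0053). The replicate signals of the 2 dawns did not overlap in any of these. The call for CHLP was lost after quantile normalization, with a difference of -0.40 and an adjusted p of 0.12, and without flag leaf replicate 1 or 2 (adjusted p = 0.082 and 0.081).

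In seedling leaves 3 members (2%) passed for 32 h minus 8 h, all higher, against 2.27% of all probe sets in either direction and 0.794% higher and 1.47% lower. With the replicate number as a block the count was 8, of which 7 were higher, and without either flag leaf replicate it was 13. OsHsf-05 was the only named one. It gave 3824 and 2947 at 32 h and 1442 and 1089 at 8 h, a difference of 1.40 ± 0.28 (SE) (adjusted p = 0.0058). Without seedling replicate 1 or 2 no member passed, and OsHsf-05 had a difference of 1.41 and 1.39 (adjusted p = 0.39 and 0.33). In flag leaves it gave 2189 and 1823 at 32 h and 1619 and 1625 at 8 h, a difference of 0.30 ± 0.28 (SE) that did not pass (adjusted p = 0.58). A member with no gene in the annotation was higher by 1.16 ± 0.17 (SE) (adjusted p = 0.00022) and the unnamed LOC4349562 by 0.79 ± 0.18 (SE) (adjusted p = 0.017). Whether the 2 tissues differ in the change between dawns alone was not tested.

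**Figure D5:**
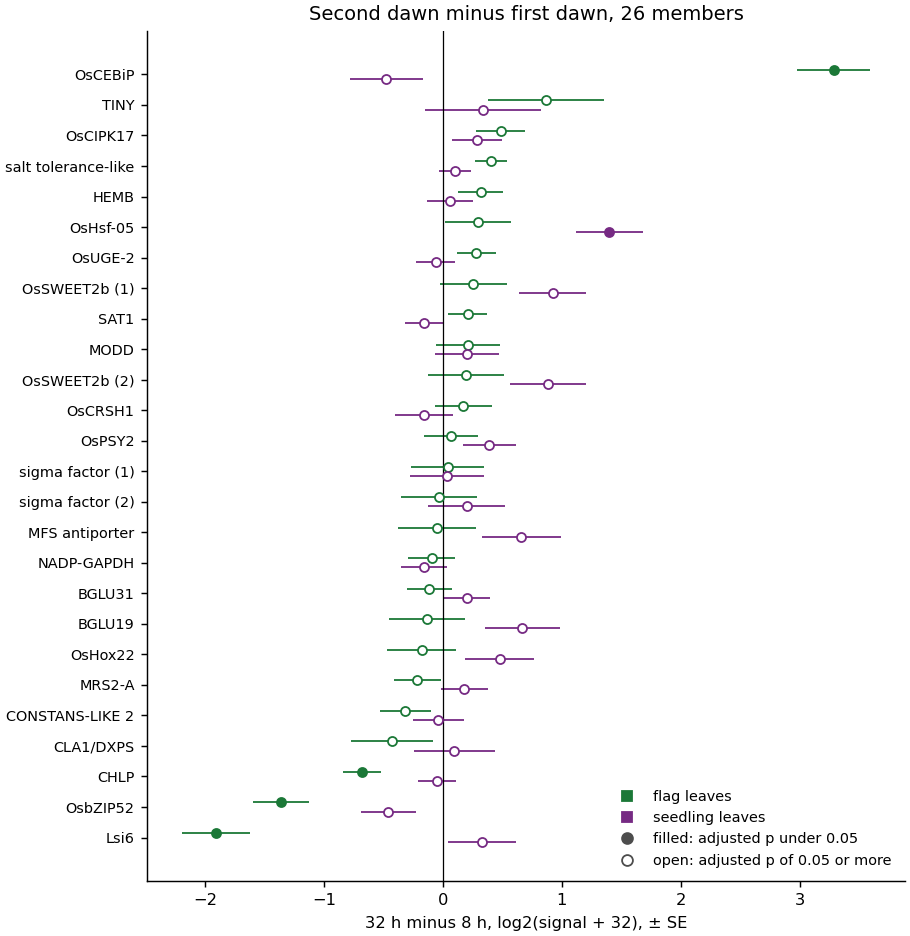
Difference between the second dawn (32 h) and the first dawn (8 h) on the log2 scale, with its standard error from limma, for the 26 named members in flag leaves (green, upper point) and seedling leaves (purple, lower point). Filled points passed an adjusted p of 0.05. OsCEBiP at 3.28 and Lsi6 at -1.91 in flag leaves stand farthest from 0, and OsHsf-05 is the filled seedling point.

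Over the matched hours of both days, 32, 36 and 40 h minus 8, 12 and 16 h, 17 members (11.3%) passed in flag leaves, against 4.28% of all probe sets. There were 9 higher on the second day (6%, against 2.25%) and 8 lower (5.33%, against 2.02%), with a median of 0.03. Without either seedling replicate 5 passed. The 4 named ones were all lower. CLA1 differed by -1.0 ± 0.20 (SE) (adjusted p = 0.0038), with signals of 1474 and 1532 at 32 h against 2207 and 1874.5 at 8 h, 218 and 194 at 36 h against 972 and 505 at 12 h, and 1385 and 839 at 40 h against 3552 and 1267 at 16 h. The replicates of CLA1 lay far apart at 16 h. All test values given for CLA1 are those of its member probe set, and none are given for its other probe set. CHLP differed by -0.47 ± 0.09 (SE) (adjusted p = 0.0036), Lsi6 by -0.74 ± 0.17 (SE) (adjusted p = 0.0099) and OsbZIP52 by -0.57 ± 0.14 (SE) (adjusted p = 0.015). The call for CHLP ended after quantile normalization (adjusted p = 0.053) and those for CHLP and OsbZIP52 without flag leaf replicate 1 (adjusted p = 0.074 and 0.13). Without seedling replicate 1 or 2, CLA1 (adjusted p = 0.068), Lsi6 (adjusted p = 0.12) and OsbZIP52 (adjusted p = 0.13) did not pass.

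In seedling leaves 4 members (2.67%) passed for the second day minus the first, against 1.7% of all probe sets, 3 higher and 1 lower (0.586% and 1.12% of all). With the replicate number as a block there were 8, without either flag leaf replicate 12 and without either seedling replicate 0. OsHsf-05 was again the named one, at 0.75 ± 0.16 (SE) (adjusted p = 0.014), and it did not pass without seedling replicate 1 or 2 (adjusted p = 0.94 and 0.23). The only one that was lower, a member with no gene in the annotation, differed by -0.39 ± 0.09 (SE) (adjusted p = 0.018), while in flag leaves it was higher by 0.31 ± 0.09 (SE) (adjusted p = 0.036).

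The change between days differed between the tissues for 9 members (6%), against 2.09% of all probe sets, 3 with a higher (2%, against 1.18%) and 6 with a lower (4%, against 0.913%) change in flag leaves. The replicate block gave 18. Without flag leaf replicate 1 or 2 there were 15 and 14, and without seedling replicate 1 or 2 there were 0 and 3. CHLP and CLA1 were the named ones. The change of CHLP was -0.47 ± 0.09 (SE) in flag leaves and 0.11 ± 0.09 (SE) in seedling leaves, a difference of -0.57 ± 0.13 (SE) (adjusted p = 0.018). That of CLA1 was -1.0 ± 0.20 (SE) in flag leaves and 0.08 ± 0.20 (SE) in seedling leaves, a difference of -1.08 ± 0.28 (SE) (adjusted p = 0.042). Both calls were lost without seedling replicate 1 or 2, without flag leaf replicate 1 and with no filter on low signals, and that of CHLP also without flag leaf replicate 2 and after quantile normalization, over which settings the adjusted p was 0.053 to 0.85. That of CHLP was lost without the 16 h and 40 h arrays as well (adjusted p = 0.056), and that of CLA1 without the 44 h arrays (adjusted p = 0.052).

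At dusk in flag leaves, 44 h minus 20 h, 5 members (3.33%) passed, all higher, against 0.597% of all probe sets in either direction and 0.154% higher and 0.443% lower. The member median was 0.22 and that of all probe sets 0.00. OsPSY2 gave 1275 and 932 at 44 h and 402 and 712 at 20 h, a difference of 0.98 ± 0.22 (SE) (adjusted p = 0.042). Without flag leaf replicate 1 the difference was 0.37 (adjusted p = 0.46). A member with no gene in the annotation had the largest difference, 2.11 ± 0.44 (SE) (adjusted p = 0.021). This count depended on the replicates, and the share of all probe sets was not counted under the other settings. With the replicate block it was 18, of which 17 were higher, without flag leaf replicate 2 it was 22, without flag leaf replicate 1 it was 3, all lower, and without either seedling replicate it was 0.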

How the data were processed

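The deposited values were linear signal intensities of 57194 rice probe sets, which the authors computed with the MAS5 algorithm in GCOS and scaled to a target of 500 per array. GCOS and MAS5 are named in the submitters' processing notes and their versions are not given in the sources used here. Intensities carry no read depth, so precision is limited by the 2 biological replicates per time point.

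The constant 32 was added before taking log2, and no further normalization was made. Each comparison was a contrast of 20 tissue and time groups in 1 limma model over all 40 arrays (limma 3.58.1 in R 4.3.3), on the 25948 that averaged 100 or more in either tissue, with Benjamini-Hochberg adjustment and a threshold of 0.05. The script was tested on simulated data. Other steps used Python 3.11.15. The text names the 24 members of largest smaller range with 1 described gene, up to 4 of each gene list, the 5 smallest adjusted p each way per test among annotated members, the 3 largest ranges per tissue, the 3 either side of the limit and members sharing a gene. Of 28 members with a name or description, 26 are treated as named, leaving out 1 probe set of several genes and 1 described as a transposon protein. Unnamed members were singled out after their values were seen. The members and lists were chosen with earlier results of these data known, and the pathway lists after the members were seen. Gene names came from the platform annotation updated through RefSeq and from the study's annotation. A planned search for promoter motifs was not run, and no sequences are given. Same-numbered samples deviated together within each tissue, with a correlation of 0.186 to 0.429 in flag leaves and 0.27 to 0.510 in seedling leaves over 45 pairs of time points each, so the replicate number was used as a block in an alternative. Other alternatives changed the constant, normalization, filter, moderation, array weights, replicates and time points. Leaving out 1 replicate leaves that tissue with 1 array per time point, assumed to vary like the other tissue.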

Additional observations from a re-analysis of the deposited data

Results flagged for a closer look

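The change between days differed between flag leaves and seedling leaves for 9 members by limma's test of the difference itself, with Benjamini-Hochberg adjustment. This was 6% of the members, against 2.09% of all probe sets tested. The count depended on the replicates, and the calls for CHLP and CLA1 were lost under several alternative settings. CHLP had a difference of -0.57 and CLA1 of -1.08, both with a lower change in flag leaves. The unnamed members LOC4326901, LOC4351372, LOC4349652 and LOC4343051 also had a lower change in flag leaves, with differences of -1.11, -0.76, -0.81 and -1.19 on the log2 scale. A member with no gene in the annotation and the unnamed LOC4326767 and LOC4327913 had a higher change in flag leaves, with differences of 0.70, 0.64 and 1.25. Tissue, plant age and growth conditions differ together here, so that their parts in these differences cannot be told apart.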

How the results depend on the processing

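Of 321 alternatives to 23 named results, 288 kept direction and side of the threshold, 33 lost the call and 0 turned direction. Of the 23 results, 13 passed in every alternative run. They were the level results and those of OsCEBiP, Lsi6 and OsbZIP52 at the flag leaf dawns. Each of the others lost its call in some setting. These were all results for days, seedling dawns, flag leaf dusk and day change, and CHLP at the flag leaf dawns. With the replicate number as a block the counts of members called were 8 for the second day minus the first and 8 for 32 h minus 8 h in seedling leaves, 18 for 44 h minus 20 h in flag leaves and 18 for the difference in day change. The block moved no other count by over 1.5 times. Array weights gave 8 and 14 members for the 2 seedling comparisons and 1 for 44 h minus 20 h. With no filter there were 2 for the seedling days and 0 for 44 h minus 20 h. Quantile normalization gave 6 for seedling 32 h minus 8 h, and a moderation trend 8 for 44 h minus 20 h. Leaving out the 16 h and 40 h arrays, chosen after seeing the data, also gave 8 there. Leaving out 1 replicate in turn gave 122 to 140 for the level, 5 to 19 for the flag leaf days, 0 to 12 for the seedling days, 16 to 24 for flag leaf 32 h minus 8 h, 0 to 13 for seedling 32 h minus 8 h, 0 to 22 for 44 h minus 20 h and 0 to 15 for the difference in day change. Of the 150 members, 97 were chosen again without the first day's samples at 8 to 20 h, 112 without the second day, 132 without replicate 1, 132 without replicate 2 and 133 to 145 under the other settings of the rule. The cause of these shifts was not tested. Counts of members called under the alternatives stand without the share of all probe sets, so that they do not set the members apart from other probe sets. Differences at signals near the constant of 32 are compressed, and MAS5 signals near background have little order.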
